A study of Mus musculus with 9 samples.

Results

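Expression of 10 genes of the Eph receptor and ephrin families was followed in CEpiLCs, caudal epiblast-like cells made from mouse embryonic stem cells as a culture model of the posterior epiblast, from which the trunk is built. The genes were chosen by their symbols and comprise 6 receptors (Epha2, Epha4, Epha7, Ephb2, Ephb3 and Ephb4) and 4 ephrins (Efna1, Efna5, Efnb1 and Efnb2), out of 24736 genes in the table. All 10 had counts in every library. RNA was sequenced from 9 cultures, 3 each of wild-type cells (WT), of cells with Cdx1/2/4-/- (CdxKO) and of cells with T/Bra-/- (T/BraKO). Every culture had spent 2 days in N2B27 medium with bFGF at 10 ng per ml and with 5 uM LGK974, which stops the secretion of WNT proteins by inhibiting Porcupine. WNT signalling was then switched on with the GSK3 inhibitor CHIR99021 until collection at 72 h, on day 3. The study's methods name an XY parental line, but the CdxKO libraries held almost no counts of 3 Y-linked genes and Hprt was high in T/BraKO alone (values below). Whether the 3 lines share that origin was not tested. The stem cells had been kept on feeder fibroblasts and were freed from them by differential plating. The labels name no second line for any genotype, so a mutation and the line that carries it cannot be told apart.

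Eph receptors are tyrosine kinases of the cell surface, and ephrins are ligands that stay anchored in the membrane of a neighbouring cell. Ephrin-A proteins are held by a lipid anchor and mostly bind EphA receptors, whereas ephrin-B proteins span the membrane and mostly bind EphB receptors, with EphA4 able to bind both classes. Signals run into the receptor cell and back into the ephrin cell, and they often lead to repulsion. In the embryo these contacts separate cell groups, as at somite boundaries, between hindbrain segments and between arteries and veins.

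Sequence upstream of the transcription start is given for Epha4, the gene on which the comparison of the mutants turned, and for Efnb2, the gene whose promoter held the single motif match among these genes. Both are the 250 bases before the RefSeq start on GRCm38.p6, read 5′ to 3′ on the minus strand, chr1:77515089-77515338 for Epha4 and chr8:8661243-8661492 for Efnb2. Capitals mark a match to the CDX motif letters and are absent from the Epha4 sequence.
Epha4: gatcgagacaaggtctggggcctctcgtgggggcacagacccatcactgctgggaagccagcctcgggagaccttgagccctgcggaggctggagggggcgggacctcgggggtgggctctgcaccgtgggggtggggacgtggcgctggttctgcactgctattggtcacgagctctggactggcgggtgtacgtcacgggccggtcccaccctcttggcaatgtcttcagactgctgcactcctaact
Efnb2: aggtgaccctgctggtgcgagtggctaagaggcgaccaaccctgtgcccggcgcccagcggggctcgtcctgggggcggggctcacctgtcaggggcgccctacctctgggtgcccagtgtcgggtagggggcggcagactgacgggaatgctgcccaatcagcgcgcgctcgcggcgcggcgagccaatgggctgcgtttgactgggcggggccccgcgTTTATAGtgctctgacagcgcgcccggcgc
In 12 RefSeq promoter windows of 300 bases (250 before and 50 after the start) that covered all 10 genes, both strands were searched for AGGTGTGA, the half-site of T-box factors, TTTATNG, bound by CDX factors, and CTTTGAT, bound by TCF/LEF factors. TTTATNG was present in 1 of the 12 windows, as TTTATAG on the gene's strand 30 bases before the start of Efnb2, against 10.9% of all 32851 windows. AGGTGTGA was in 0 of the 12 and in 1.28% of all windows. CTTTGAT was likewise in 0 of the 12 and in 3.73% of all windows. These are matches of letters in a short window and say nothing of binding.

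Libraries held between 25124344 and 34705361 expected counts. The ribosomal RNA gene Rn45s took 1.69% to 4.21% of counts in the libraries numbered 1 and 0.343% to 0.992% in the other 6. Same-numbered libraries of different genotypes deviated from their group means together (mean r 0.703 over 9 pairs, across genes), so the replicate number was also fitted as a block. Of the targeted genes, T had a mean of 12240 normalised counts in WT and 2295 in T/BraKO (log2 fold change -2.42, DESeq2 adjusted p = 7.83e-10), and Cdx4 had 1 or 2 counts in each CdxKO library. Transcripts of T, Cdx1 and Cdx2 were still counted in their mutants. The lines also differed outside the targeted genes: the Y-linked gene Ddx3y had 0 counts in all 3 CdxKO libraries and a mean of 1727 normalised counts in WT, Uty and Eif2s3y had 0 to 3 counts per CdxKO library, and Hprt averaged 3938 in T/BraKO but 21.7 in WT. A sum of 12 caudal epiblast markers lay between 1976 and 3058 TPM in all libraries. Pou5f1 was its largest part, with means of 880, 1002 and 1241 TPM in WT, CdxKO and T/BraKO, and T averaged 431, 467 and 78.9. Single markers differed. In CdxKO 3 were called lower than in WT (Cdx2, Wnt3a and Wnt8a), and in T/BraKO 3 were called lower than in WT (T, Wnt3a and Fgf8). Between the mutants 2 were called higher in CdxKO (T and Fgf8) and 3 lower (Cdx2, Nkx1-2 and Wnt8a). Cdx2 and T are themselves targeted genes, so their calls say nothing further of cell state. By edgeR without the block 0 of the 12 were called in CdxKO against WT, 2 in T/BraKO against WT and 3 between the mutants. With the block DESeq2 called 1 higher and 5 lower in CdxKO, and 4 higher and 3 lower in T/BraKO, against WT. Between the mutants the block called 3 higher in CdxKO and 6 lower. A sum of 8 neural markers was 88.7 to 154 TPM, most of it from Nes alone (80.9 to 137 TPM). With the block 1 of the 8 was called lower in CdxKO than in WT and 1 lower in T/BraKO than in WT. Between the mutants the block called 1 higher in CdxKO. In bulk RNA, fewer cells of a type and less RNA per cell cannot be told apart.

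Levels were compared between genes in TPM (a gene's share of all transcripts on a fixed scale), which takes transcript length into account. Epha2, an ephrin-A receptor, had the highest mean of the 6 receptors in each genotype, at 79.8 ± 38.3 TPM in WT (mean ± SD, n = 3), 109 ± 52.3 in CdxKO and 133 ± 46.6 in T/BraKO. Its share of the 6 receptors' summed TPM ran from 31.9% in WT replicate 2 to 62.6% in T/BraKO replicate 3. Ephb4, the receptor of ephrin-B2 on venous endothelium, came next at 57.4 ± 3.78 TPM in WT. The ranges of Epha2 and Ephb4 overlapped in WT and in CdxKO and were separate in T/BraKO. Epha7, a receptor known from axon guidance, followed at 26.4 ± 11.9 TPM in WT. In WT, Ephb2 (11.1 TPM), Ephb3 (9.66 TPM) and Epha4 (8.48 TPM) overlapped with their neighbours in this order.

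The place of Epha4 in that order differed between the mutants. In CdxKO it had a mean of 15.5 ± 6.12 TPM and came after Epha7 with an overlapping range and above Ephb3 and Ephb2 in every library. In T/BraKO it was the lowest of the receptors, at 4.70 ± 1.64 TPM, below Ephb3 in all 3 libraries. The ephrins kept one order of means in every genotype, Efnb1, Efnb2, Efna5 and Efna1. In WT these were 55.5 ± 5.62, 34.5 ± 5.55, 9.88 ± 1.48 and 5.19 ± 1.44 TPM, and neighbours in the order did not overlap in any genotype except Efnb1 and Efnb2 in CdxKO. The ephrin-B pair carried between 84.1% and 91.9% of the TPM of the 4 ephrins.

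**Figure D1:**
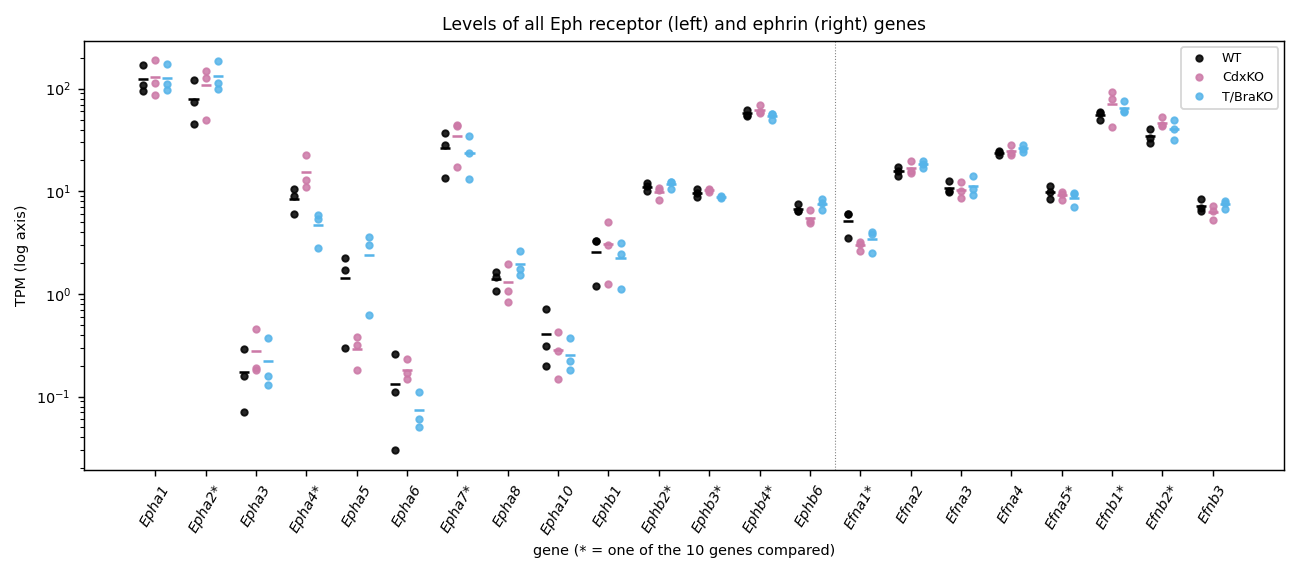
TPM on a log axis for the 14 Eph receptor genes (left of the dotted line) and the 8 ephrin genes (right) in WT, CdxKO and T/BraKO. Points are libraries, short lines are group means, and an asterisk marks the 10 genes compared. Epha1, Epha2 and Ephb4 lie highest among receptors, Efnb1 and Efnb2 among ephrins, and Epha4 and Epha5 lie apart in CdxKO and T/BraKO.

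Across genotypes, Epha4 was the one gene of the 10 that was called between the mutants with genotype alone. It binds ephrins of both classes and is known from somite and hindbrain boundaries. In WT replicates 1, 2 and 3 its normalised counts were 933.9, 536.8 and 820.4. They were 2029, 982.2 and 1180 in CdxKO and 502.0, 256.5 and 545.3 in T/BraKO. All 3 CdxKO libraries lay above all WT libraries, and the T/BraKO range reached just above the lowest WT library. In each genotype the library numbered 2 was the lowest.

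Directly between the mutants, Epha4 was 3.21-fold higher in CdxKO than in T/BraKO (log2 fold change 1.68, SE 0.34, 95% interval 1.02 to 2.35, DESeq2 adjusted p = 7.12e-05). The difference was positive for each replicate number, at 2.01, 1.93 and 1.11 on the log2 scale. It was also past the threshold by edgeR's quasi-likelihood test (adjusted p = 0.0354) and in all 15 alternatives, with log2 fold changes from 1.31 to 1.89. This was 1 of the 10 genes called, higher in CdxKO, against 2.52% of 16016 genes tested that were called higher and 0.962% called lower. Called here means a DESeq2 adjusted p of at most 0.05 over all genes tested, with genotype as the only term unless the block is named.

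For each number the CdxKO library lay above, and the T/BraKO library below, the WT library. Both differences from WT were called once the replicate number was blocked, and neither with genotype alone. In CdxKO the log2 fold change was 0.87 (SE 0.34, DESeq2 adjusted p = 0.485), and with the replicate block 0.85 (SE 0.13, adjusted p = 4.49e-08). In T/BraKO it was -0.81 (SE 0.34, DESeq2 adjusted p = 0.606), and with the block -0.83 (SE 0.14, adjusted p = 1.60e-07). Both comparisons share the WT libraries. The blocked call in CdxKO was lost without CdxKO replicate 2 (log2 fold change 0.79, DESeq2 adjusted p = 0.0752). In T/BraKO the blocked call was lost without WT replicate 2 (-0.79, DESeq2 adjusted p = 0.0955) and without T/BraKO replicate 2 (-0.73, adjusted p = 0.0672). Leaving out the libraries numbered 2 in all groups also ended both (adjusted p = 0.151 and 0.274 by DESeq2).

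Markers of paraxial mesoderm, the tissue of the somites, moved with Epha4 in part. Their summed level over 9 genes ran from 64.5 to 124 TPM in WT, from 37.5 to 134 in CdxKO cells and from 23.0 to 49.3 in T/BraKO, and in each genotype the library numbered 2 was lowest. Msgn1 and Tbx6, which define this tissue, averaged 154 and 182 normalised counts in WT and 3.21 and 17.1 in T/BraKO. These genes did not follow the order of the sum throughout. Both were lowest in replicate 2 in CdxKO but in replicate 3 in WT (113.7 and 109.1). In T/BraKO Tbx6 was highest in replicate 2 (20.2). Between CdxKO and WT 0 of the 9 markers were called (0 also had an unadjusted p under 0.05 by DESeq2 or edgeR), and between CdxKO and T/BraKO 2 of the 9 were called higher in CdxKO. Against WT, 2 were called lower in T/BraKO. With the block 1 was called lower in CdxKO than in WT, where Epha4 was higher, and 4 lower in T/BraKO than in WT. Between the mutants the block called 4 higher in CdxKO. A sum of 7 lateral and extraembryonic mesoderm markers was 50.8 to 60.8 TPM in WT, 55.6 to 67.4 in CdxKO cells and 25.8 to 39.0 in T/BraKO. Etv2 was its largest part, with means of 38.4, 37.5 and 22.6 TPM in WT, CdxKO and T/BraKO. Single markers differed, as Hand1 averaged 1.36, 7.38 and 1.57 TPM and Kdr 7.49, 5.31 and 3.74. Of the 7, 1 was called higher in CdxKO than in WT and 3 higher in CdxKO than in T/BraKO. In T/BraKO against WT 0 were called (2 had an unadjusted p under 0.05 by DESeq2 and by edgeR, which called 0). The block called 2 of the 7 higher in CdxKO than in WT, and 3 lower in T/BraKO than in WT. It called 4 higher in CdxKO than in T/BraKO. Of 9 feeder fibroblast markers, whose sum was 39.5 to 68.4 TPM in WT, 48.1 to 84.0 in CdxKO cells and 38.2 to 62.7 in T/BraKO, 3 were called higher in CdxKO than in T/BraKO and 1 lower. The higher ones were Col1a1 (1377 to 2952 normalised counts in CdxKO, 353.4 to 729.2 in T/BraKO), Col1a2 (695.1 to 1584 against 336.3 to 648.7) and Postn (29.2 to 150.9 against 4.49 to 5.52), and the lower one was Thy1 (199.4 to 344.7 against 521.1 to 784.4). Against WT, Postn was called lower in T/BraKO and 0 of the 9 were called in CdxKO (3 had an unadjusted p under 0.05 by DESeq2 and 2 by edgeR, which called 0). With the block 2 were called higher and 1 lower in CdxKO than in WT, 4 lower in T/BraKO than in WT, and between the mutants 5 were called, 4 of them higher in CdxKO. In CdxKO the highest library for Col1a1, Col1a2, Postn and Thy1 was replicate 2, in which Epha4 was lowest. The remaining feeder markers, Col3a1, Dcn, Lum, Pdgfra and Fbn1, were lowest in that library, as Epha4 was. The part of any of these cells in the Epha4 difference was not tested.

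**Figure D2:**
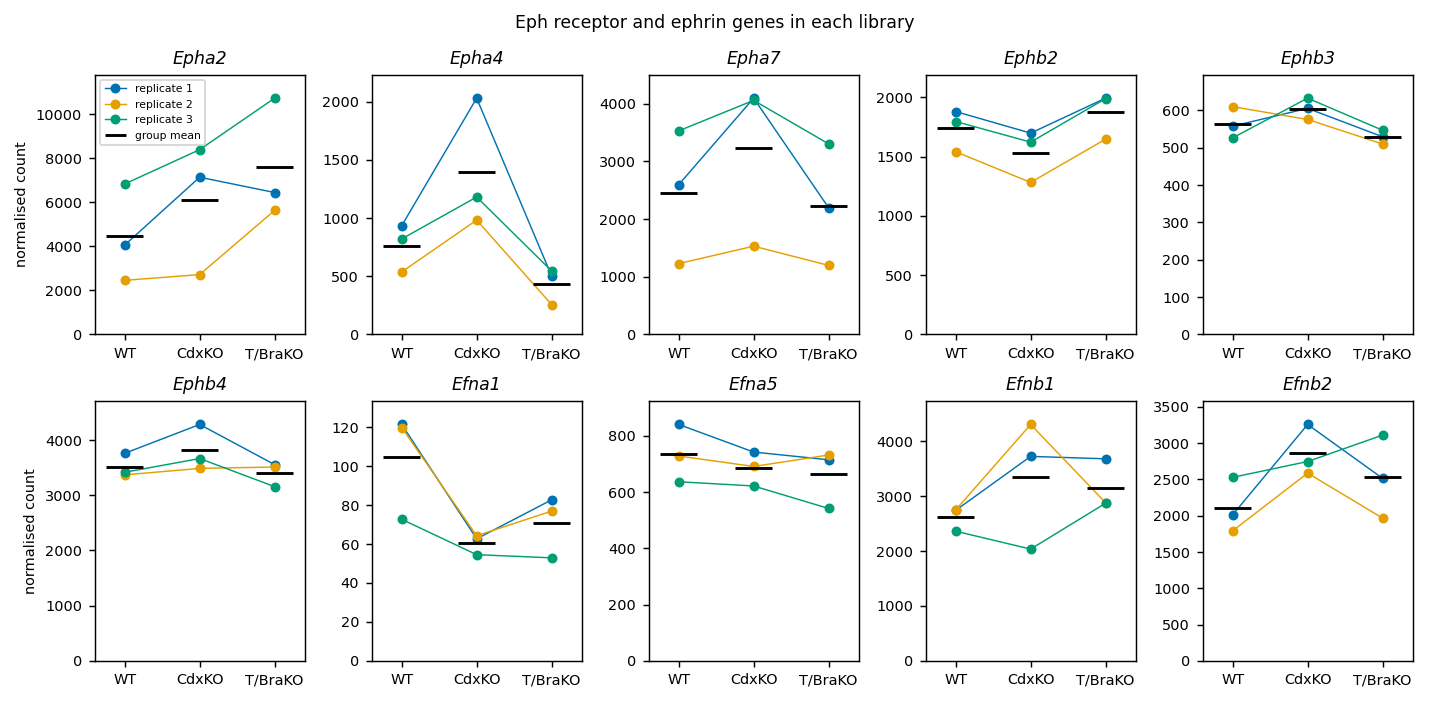
Normalised counts (linear axes from 0, a scale of its own for each gene) of the 10 genes in WT, CdxKO and T/BraKO. Colours and lines join libraries with the same replicate number, and black bars are group means. Epha4 peaks in CdxKO for every replicate number, and the libraries numbered 2 lie low for Epha2, Epha4, Epha7, Ephb2 and Efnb2 in each genotype.

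The other EphA receptors varied more between replicate numbers than between genotypes. Epha2, which is expressed in the primitive streak, had 4065, 2460 and 6842 normalised counts in WT replicates 1, 2 and 3. In CdxKO it had 7147, 2722 and 8400, and in T/BraKO 6452, 5639 and 10740. The genotypes overlapped, and the highest library exceeded the lowest 2.78-fold within WT and 3.09-fold within CdxKO. Every T/BraKO library lay above the WT library of its number, by 0.67, 1.20 and 0.65 on the log2 scale.

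Epha2 was not called in T/BraKO against WT with genotype alone (log2 fold change 0.77, SE 0.52, 95% interval -0.25 to 1.80, DESeq2 adjusted p = 1), but was called higher with the block (0.86, SE 0.26, adjusted p = 0.0143). That blocked call was lost when any 1 of 6 libraries was left out, namely WT replicates 1, 2 and 3, CdxKO replicate 3 and T/BraKO replicates 2 and 3 (DESeq2 adjusted p from 0.0662 to 0.210, log2 fold change from 0.58 to 0.94). In CdxKO against WT the blocked value was 0.44 (95% interval -0.06 to 0.94, DESeq2 adjusted p = 0.443), and between the mutants -0.42 (adjusted p = 0.315).

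Epha7 had 2598, 1229 and 3531 normalised counts in WT replicates 1, 2 and 3, 4098, 1531 and 4060 in the CdxKO and 2198, 1198 and 3306 in the T/BraKO libraries. The groups overlapped widely, while for each number CdxKO was the highest of the 3 genotypes. With genotype alone the CdxKO difference from WT was 0.40 on the log2 scale (SE 0.59, DESeq2 adjusted p = 1), and that from T/BraKO 0.53 (SE 0.59, adjusted p = 0.895). With the block both were called, at 0.40 (SE 0.10, DESeq2 adjusted p = 0.00140) and 0.52 (SE 0.10, adjusted p = 1.72e-06). The first was lost without WT replicate 1 or 2, CdxKO replicate 1 or T/BraKO replicate 2 (DESeq2 adjusted p from 0.0788 to 0.181). The direct one was kept whichever library was left out and lost without all those numbered 2 (0.61, DESeq2 adjusted p = 0.0551). T/BraKO against WT gave -0.12 with the block (95% interval -0.31 to 0.07). A non-coding antisense gene, Gm11915, overlaps Epha7 on the other strand.

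That pattern by number was shared with sums of markers of other cell states. The sum of 8 naive pluripotency markers was highest in the library numbered 2 of each genotype, at 58.2 TPM in WT, 63.4 in CdxKO cells and 47.3 in T/BraKO, and 23.5 to 41.9 in the other 6 libraries. The sum of 7 definitive endoderm markers was lowest there, at 16.0, 13.3 and 10.5 TPM against 20.3 to 36.6. Single markers did not all follow these sums. Klf2 was highest in replicate 3 of each genotype, and in WT Foxa2 was lowest in replicate 1 (4.41 TPM). What part these differences have in the levels of Epha2, Epha4 and Epha7 was not tested.

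Of the EphB receptors, which bind ephrin-B ligands and in the adult position cells along intestinal crypts, none was called with genotype alone. Ephb2 had 1881, 1542 and 1797 normalised counts in WT replicates 1, 2 and 3, 1699, 1283 and 1623 in the CdxKO and 1994, 1648 and 1990 in the T/BraKO libraries. For each number CdxKO was the lowest and T/BraKO the highest, within ranges that overlapped. The direct difference was -0.29 on the log2 scale (SE 0.15, DESeq2 adjusted p = 0.451), and with the block -0.30 (SE 0.07, adjusted p = 5.78e-04), a call that was kept without any single library. Without the libraries numbered 2 or those numbered 3 it was lost (DESeq2 adjusted p = 0.0541 and 0.0968). Against WT the blocked values were -0.19 in CdxKO (DESeq2 adjusted p = 0.118) and 0.11 in T/BraKO (adjusted p = 0.386).

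Ephb3 lay between 510.2 and 633.0 normalised counts in all 9 libraries. Its 3 CdxKO libraries (605.7, 575.9 and 633.0) were above its 3 T/BraKO libraries (529.6, 510.2 and 547.1), and the WT libraries overlapped both. The difference between the mutants was 0.19 on the log2 scale (95% interval -0.01 to 0.40, DESeq2 adjusted p = 0.524, with the block 0.273). Ephb4 ranged from 3158 to 4286 normalised counts. Its log2 fold changes were 0.12 in CdxKO (95% interval -0.10 to 0.33) and -0.04 in T/BraKO (-0.26 to 0.17) against WT, and 0.16 between the mutants (-0.05 to 0.38).

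**Figure D3:**
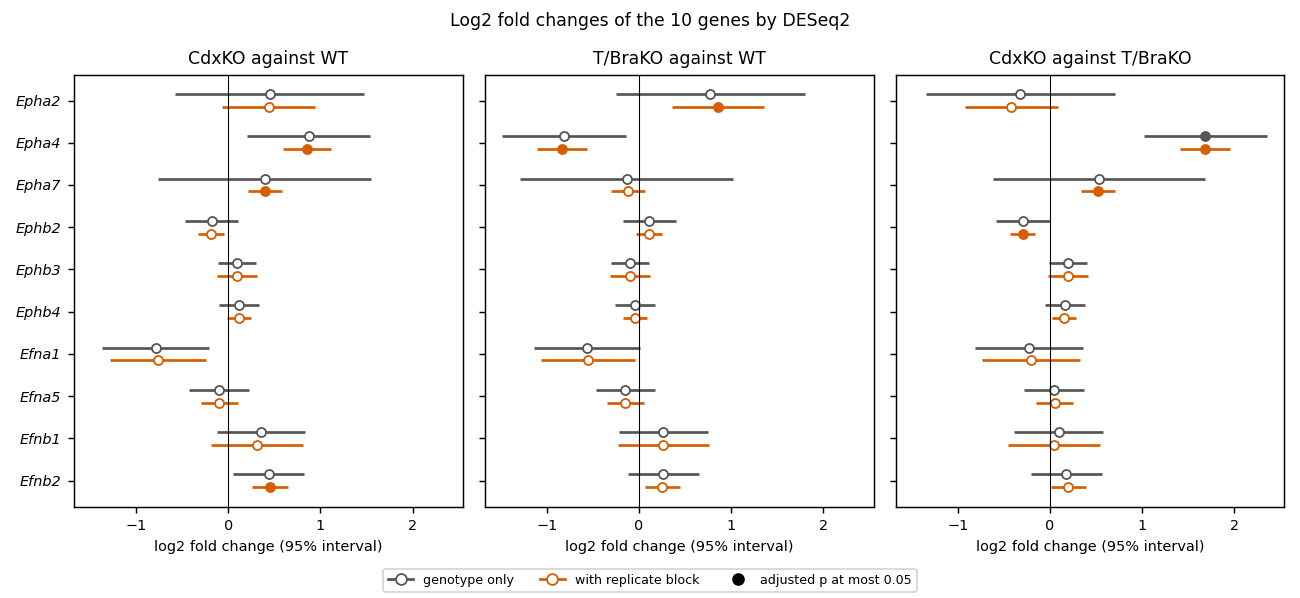
Log2 fold changes of the 10 genes with 95% intervals in the 3 comparisons, by DESeq2 with genotype only (grey) and with the replicate block (orange). Filled points have an adjusted p of at most 0.05. Epha4 in the direct comparison is the single filled grey point, and the intervals of Epha2 and Epha7 are the widest without the block and narrow with it.

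Among the ephrins, Efnb2 was called higher in CdxKO than in WT with the block. Efnb2 encodes the membrane-spanning partner of Ephb4 and of Epha4, and marks arteries. It had 2013, 1792 and 2530 normalised counts in WT replicates 1, 2 and 3, 3259, 2588 and 2748 in the CdxKO and 2516, 1968 and 3112 in the T/BraKO libraries. Every CdxKO library exceeded every WT library, the nearest pair being 2588 and 2530, and T/BraKO overlapped both. The difference of CdxKO from WT was 0.44 on the log2 scale (SE 0.20, DESeq2 adjusted p = 0.736), and with the block it was called, at 0.45 (SE 0.10, adjusted p = 2.60e-04). That call was lost without WT replicate 1, WT replicate 2 or CdxKO replicate 1 (DESeq2 adjusted p of 0.131, 0.357 and 0.117). In T/BraKO the blocked difference from WT was 0.25 (95% interval 0.06 to 0.45, DESeq2 adjusted p = 0.0836), and between the mutants it was 0.20 (adjusted p = 0.174). On the same strand 3 genes of unconfirmed coding status overlap Efnb2.

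Efna1, a lipid-anchored ligand of Epha2, had the lowest mean TPM of the 10 genes in each genotype. It had 121.5, 119.9 and 72.7 normalised counts in WT replicates 1, 2 and 3, 62.7, 64.3 and 54.6 in the CdxKO and 82.7, 76.9 and 52.9 in the T/BraKO libraries. All CdxKO libraries were below all WT libraries, and each T/BraKO library was below the WT library of its number. The log2 fold change was -0.79 in CdxKO (SE 0.30, 95% interval -1.37 to -0.21, DESeq2 adjusted p = 0.427, with the block 0.0700). In T/BraKO it was -0.56 (SE 0.29, DESeq2 adjusted p = 0.998, with the block 0.185). By edgeR with the block both were past the threshold (adjusted p = 0.0158 and 0.0460).

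Efnb1, a membrane-spanning ephrin encoded on the X chromosome, had 2742, 2750 and 2362 normalised counts in WT. It had 3726, 4308 and 2036 in CdxKO and 3682, 2881 and 2872 in T/BraKO. The CdxKO libraries thus stood on both sides of the WT range, with replicate 3 the lowest of all 9, whereas every T/BraKO library was above every WT library. Efnb1 was called in no comparison with or without the block, but without CdxKO replicate 3 it was called higher in CdxKO than in WT (log2 fold change 0.62, DESeq2 adjusted p = 0.0252, against 0.36 with all libraries). The T/BraKO difference from WT was 0.26 on the log2 scale (95% interval -0.21 to 0.74). Xist, which silences the inactive X chromosome, had 5.02 to 16.5 normalised counts in all 9 libraries, and Ddx3y on the Y chromosome was at 0 in CdxKO alone. Their part in the levels of Efnb1 was not tested.

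Efna5, a lipid-anchored ephrin that patterns axon maps, varied little. It lay between 541.7 and 840.5 normalised counts and was lowest in the library numbered 3 of each genotype, as were Efna1 and Efnb1. Its log2 fold changes were -0.10 in CdxKO (95% interval -0.42 to 0.22) and -0.15 in T/BraKO (-0.47 to 0.17) against WT and 0.05 between the mutants (-0.28 to 0.37).

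Counted together, 0 of the 10 genes were called in CdxKO against WT with genotype alone (3 had an unadjusted p under 0.05, also by edgeR, which called 0), where 0.335% of 16737 genes were called higher and 0.358% lower. With the block 3 were called higher (Epha4, Epha7 and Efnb2) and 0 lower, against 3.4% and 1.91% of 13855 genes. In T/BraKO against WT 0 were called (1 had an unadjusted p under 0.05, also by edgeR, which called 0), against 0.148% of 18900 genes called higher and 0.937% lower. With the block 1 was called higher (Epha2) and 1 lower (Epha4), against 4.83% and 4.85% of 12773 genes. Between the mutants the block gave 2 called higher in CdxKO (Epha4 and Epha7) and 1 lower (Ephb2), against 7.75% and 6.9% of 14936 genes. The median log2 fold change of the 10 genes was 0.24 in CdxKO against WT, -0.07 in T/BraKO against WT and 0.13 between the mutants with genotype alone, where the medians over all genes were 0.00, 0 and -0.01. Groups did not overlap for 2 of the 10 genes above and 1 below in CdxKO against WT. In T/BraKO against WT 1 lay above, and between the mutants 2 were above in CdxKO. Over 18902 genes, 8.92%, 9.24% and 13.3% were without overlap in these comparisons, in either direction.

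**Figure D4:**
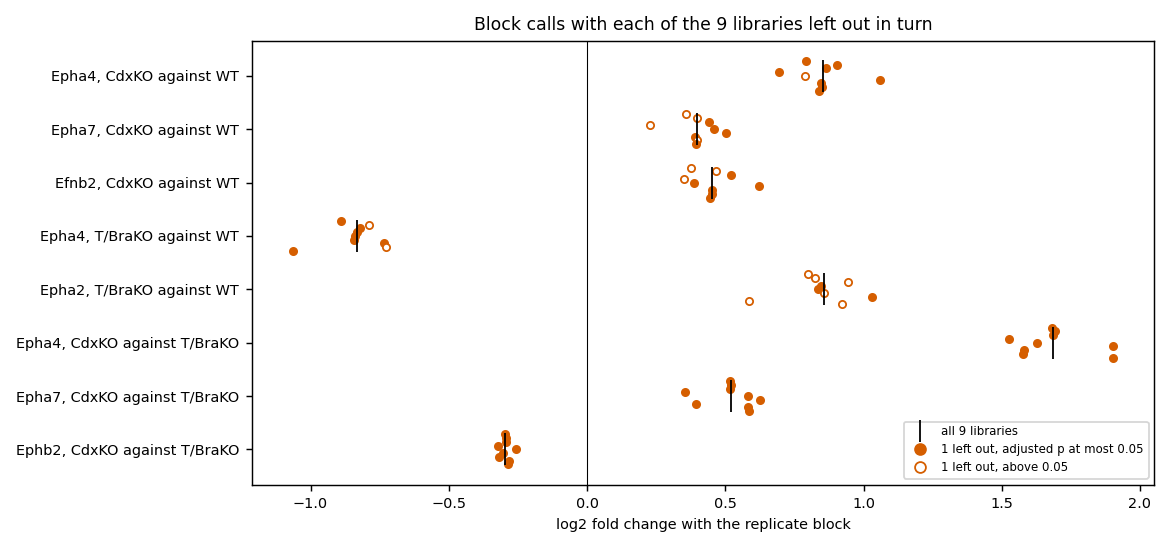
Log2 fold changes with the replicate block for the 8 block calls among the 10 genes, each with all 9 libraries (black mark) and with 1 library left out in turn (circles). Filled circles have an adjusted p of at most 0.05. In the direct comparison every circle of Epha4, Epha7 and Ephb2 is filled, whereas each call against WT has at least 1 open circle.

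The family has 12 further genes in the table, of which 9 averaged 50 normalised counts or more in a genotype. Epha1, a receptor of ephrin-A ligands, was the most abundant EphA gene in WT and CdxKO, at 124 ± 39.1 TPM in WT, 130 ± 52.9 in CdxKO cells and 128 ± 40.6 in T/BraKO, with log2 fold changes of 0.07 in both mutants against WT. Epha5, a receptor of the nervous system, was the one called with genotype alone, between the mutants. It had 248.7, 32.9 and 193.9 normalised counts in WT replicates 1, 2 and 3, 42.6, 19.6 and 35.7 in the CdxKO and 408.2, 69.6 and 343.5 in the T/BraKO libraries. For every number CdxKO was the lowest and T/BraKO the highest, the reverse of Epha4, and in each genotype the library numbered 2 was the lowest.

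Epha5 was lower in CdxKO than in T/BraKO by -3.07 on the log2 scale (SE 0.87, DESeq2 adjusted p = 0.0167), and by -2.87 with the block (adjusted p = 3.93e-22), but edgeR without the block gave an adjusted p of 0.108. Against WT it was called with the block, at -2.04 in CdxKO (DESeq2 adjusted p = 2.54e-10) and 0.83 in T/BraKO (adjusted p = 0.0140), where genotype alone gave 0.464 and 1. Ephb6, a receptor whose kinase is inactive, averaged 360 ± 30.1 normalised counts in WT, and 295 ± 49.6 in CdxKO cells against 414 ± 54.2 in T/BraKO cells. The mutants did not overlap for Ephb6, and the direct difference of -0.49 was called with the block (DESeq2 adjusted p = 0.00224), whereas genotype alone gave 0.0898.

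Epha8, Ephb1, Efna2, Efna3, Efna4 and Efnb3 were called in no comparison by either fit. Their WT means were 92.8, 172, 463, 180, 522 and 326 normalised counts, and Efna4 (23.8 ± 1.11 TPM) and Efna2 (15.6 ± 1.52 TPM) were more abundant in WT than Efna5. Epha3, Epha6 and Epha10 had 1.87 to 51.3 normalised counts in all libraries. In all, 0, 0 and 1 of the 12 were called with genotype alone in CdxKO against WT, T/BraKO against WT and CdxKO against T/BraKO (1, 0 and 2 had an unadjusted p under 0.05 by DESeq2 and by edgeR, which called 0 in each). With the block 1 was called lower, 1 higher and 2 lower, where 1.91%, 4.83% and 6.9% of all genes tested were called in those directions.

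Adaptors and effectors that relay Eph signals inside the cell were read from a list of 35 genes, all measured. In CdxKO against WT 1 was called higher and 1 lower, against 0.335% and 0.358% of all genes tested. By edgeR without the block 0 of the 35 were called higher and 1 lower. Crk, an adaptor that links phosphorylated receptors to small GTPases, rose from 9109 ± 568 to 12740 ± 972 normalised counts (log2 fold change 0.48, SE 0.09, DESeq2 adjusted p = 1.36e-04). Grb10, an imprinted adaptor that is better known from insulin receptor signalling, fell from 13250 ± 1913 to 3979 ± 1291 (log2 fold change -1.73, SE 0.21, DESeq2 adjusted p = 1.73e-12). In both genes the CdxKO libraries were apart from all others. The same pair was called between the mutants, Crk at 0.53 (DESeq2 adjusted p = 2.54e-06) and Grb10 at -1.92 (adjusted p = 3.17e-16).

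With the block, Src, a kinase that acts below Eph receptors and ephrin-B proteins, was also called higher in CdxKO than in WT (0.30, DESeq2 adjusted p = 0.00157, without the block 0.386). In T/BraKO against WT 0 of the 35 were called with genotype alone (1 had an unadjusted p under 0.05 by DESeq2 and by edgeR, which called 0), and with the block 1, the Src family kinase Yes1, was lower (-0.25, DESeq2 adjusted p = 0.0168). Between the mutants the block gave 5 higher in CdxKO, with Crk at 0.53, Rgs3 at 0.48, Inppl1 at 0.24 and Yes1 at 0.22 the largest. It gave 2 lower, Grb10 at -1.95 and Pik3r1 at -0.25. Over all genes these calls made up 7.75% and 6.9%. Rgs3 binds the tail of ephrin-B proteins, Inppl1 is a phosphatase recruited by Epha2, and Pik3r1 is a subunit of PI3-kinase. The median log2 fold changes of the 35 genes with genotype alone were -0.01, 0.02 and 0.00 in the 3 comparisons. Their summed level was 1248 to 1343 TPM in WT, 1188 to 1243 in CdxKO, below every WT library, and 1216 to 1303 in T/BraKO. Grb10 alone held 156 to 198 TPM of that sum in WT, 39.8 to 73.8 in CdxKO and 191 to 212 in T/BraKO. The lower sum in CdxKO thus includes the fall of Grb10 and does not describe the list as a set.

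The genes were placed on GRCm38 with the GENCODE M21 annotation. Epha2 (chr4:141301240-141329384, plus strand), Epha7 (chr4:28813131-28967499, plus) and Ephb2 (chr4:136647539-136835988, minus) are on chromosome 4. Epha4 is at chr1:77367185-77515088 (minus) and holds the microRNA gene Mir6352 on its own strand. Ephb3 is at chr16:21204755-21223305 (plus) and Ephb4 at chr5:137350109-137378669 (plus), with Zan on its other strand. Efna1 is at chr3:89271733-89281142 (minus), Efna5 at chr17:62604184-62881317 (minus), Efnb1 at chrX:99136130-99148991 (plus) and Efnb2 at chr8:8617434-8661242 (minus).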

How the data were processed

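Poly(A) RNA from the 9 cultures was sequenced as stranded single-end reads. The authors trimmed reads with cutadapt 1.16 and quantified RefSeq genes of mm10 with STAR 2.5.2a and RSEM 1.3.0. They deposited expected counts, which are estimates that split shared reads between genes (3.75% to 4.00% of the values in a library were fractional), and TPM, scaled for length within each library. The labels name no source beyond separate replicates of a genotype, so p-values measure the spread between these cultures.

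Deposited expected counts were rounded and tested with DESeq2 1.42.0 in R 4.3.3 (Wald test, all 9 libraries, genotype only, Benjamini-Hochberg adjusted p of at most 0.05 over all genes), as DESeq2 is named in the study's methods. Normalised counts are counts divided by DESeq2 size factors, and fold changes are unshrunken. Deposited TPM was used for levels and not tested. Replicate numbers came from the library titles. Over the 12316 genes averaging 50 normalised counts or more, deviations from group means correlated at 0.532 to 0.814 in the 9 same-numbered pairs. The numbers were therefore taken to pair the libraries. The 18 other pairs averaged -0.34, which largely follows from centring on group means and is no separate evidence. The blocked fit is given where it changes a call among the 10 genes, the other family genes and the effectors. It is also given for the marker lists whose calls are counted. None of the 9 pairs of libraries within a genotype agreed within sampling noise, and pairs across genotypes were not compared. Alternatives were TMM factors, testing only genes that reached 10 counts in 3 or more libraries, the block, edgeR 4.0.16 with and without it, fits to the 6 libraries compared and leaving out each library. Blocked fits without a library or a number were added after seeing the data. The scripts were tested on simulated counts.

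The 10 genes and all lists were chosen with earlier results of these data known. Other family genes are named with values where a genotype mean reached 50 normalised counts, and effectors where called by either fit, at most 4 per direction by size. A floor of 3 counts equals 0.0864 to 0.119 CPM and covers counting error only. Coordinates are from GENCODE M21 on GRCm38 (mm10), and promoters from RefSeq on GRCm38.p6, where all 10 genes matched.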

Additional observations from a re-analysis of the deposited data

Results flagged for a closer look

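For Epha4 the CdxKO library lay above and the T/BraKO library below the WT library of each replicate number. Neither difference from WT was called with genotype alone (DESeq2 adjusted p = 0.485 and 0.606), and both calls made with the block were lost without the libraries numbered 2 (adjusted p = 0.151 and 0.274), so opposite signs against WT are not established. The difference between the effects, tested as CdxKO against T/BraKO, was 1.68 on the log2 scale (SE 0.34, DESeq2 adjusted p = 7.12e-05). No other of the 10 genes passed the test of that difference with genotype alone (2 of the 10, Epha4 and Ephb2, had an unadjusted p under 0.05). Groups of 3 libraries are too small for a test of single libraries that stand apart.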

How the results depend on the processing

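With genotype alone, the call of Epha4 between the mutants was kept in every alternative, and the count of called genes among the 10 moved without the block in 1 case, from 0 to 1 in CdxKO against WT without CdxKO replicate 3 (Efnb1). With the replicate block the counts were 3, 2 and 3 in CdxKO against WT, T/BraKO against WT and CdxKO against T/BraKO, and by edgeR with the block 4, 3 and 3. In DESeq2 the block changed no other call among the 10 genes. In edgeR it also brought Efna1 past the threshold, lower in CdxKO and in T/BraKO than in WT (edgeR adjusted p = 0.0158 and 0.0460). Over single genes and alternatives, 423 values kept direction and side of the threshold, 17 passed it only in the alternative and 10 changed sign. Without 1 library or 1 number, the counts with the block ranged over 0 to 4, 0 to 2 and 2 to 4.

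Over all genes, 116, 205 and 558 were called in these comparisons. The block gave 736, 1237 and 2187, edgeR 16, 74 and 243, and edgeR with the block 857, 1522 and 2797. Leaving out 1 library gave 59 (without WT replicate 1) to 140 genes, 118 (without WT replicate 1) to 214 and 370 (without T/BraKO replicate 1) to 630. Genes called higher were 28 of 205 in T/BraKO against WT and 617 of 1237 with the block, 404 of 558 and 1157 of 2187 between the mutants, and 56 of 116 and 471 of 736 in CdxKO against WT.

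Signs turned only on leaving out a library and only for differences that were not called. Log2 fold changes then ranged from -0.20 to 0.01 for Efna5 in CdxKO against WT (0.0056 without WT replicate 1), -0.53 to 0.22 for Epha7 (0.22 without WT replicate 3, 0.16 without T/BraKO replicate 2) and -0.078 to 0.007 for Ephb4 (also 0.006) in T/BraKO against WT. Between the mutants they ranged from -0.63 to 0.033 for Epha2 (0.033 without CdxKO replicate 2, 0.01 without T/BraKO replicate 3), -0.079 to 0.13 for Efna5 (-0.01 without CdxKO replicate 1) and -0.12 to 0.35 for Efnb1. The cause was not tested. Efna1 is the one gene of the 10 near 100 counts, where counting error adds most to the spread.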
